A study of Mus musculus with 24 samples.

Results

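The 10 genes of the microglial response to neurodegeneration described here across all mice of the series were Trem2, Tyrobp, Apoe, Cst7, Itgax, Clec7a, Lpl, Axl, Spp1 and Gpnmb. They were taken by name from the table of deposited expression values, which held 10 of the 10 among 15524 genes. No value was used to choose them, although the list itself was drawn up with earlier results of these data known.

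Microglia are the resident macrophages of the brain and spinal cord. TREM2 is a surface receptor for lipids, lipoproteins and debris, which carries no signalling motif of its own and signals through the adaptor TYROBP, also called DAP12. In mouse models of neurodegeneration, microglia around dying neurons and protein deposits take on a disease-associated state, in which homeostatic genes go down and genes of phagocytosis, lysosomes and lipid handling go up, and the full form of that state depends on TREM2.

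RNA was measured in lumbar spinal cord of 24 mice in 3 groups. The first comprised 4 SOD1-G37R males that had received AAV-PHP.eB-MIF (labelled MIF-HA in the treatment description) by a single injection into the tail vein after disease onset. AAV-PHP.eB is a viral capsid made to reach the nervous system from the blood, and MIF is the cytokine macrophage migration inhibitory factor. The second comprised 10 untreated SOD1-G37R mice, which carry a human SOD1 transgene with an amyotrophic lateral sclerosis mutation and were symptomatic (3 females and 7 males). The third comprised 10 non-transgenic (NT) littermates (3 females and 7 males). Untreated and NT mice came from 2 experiments. Experiment 1 held 6 SOD1-G37R and 6 NT mice of both sexes, and experiment 2 held 4 SOD1-G37R and 4 NT males. The experiment of each of these mice was read from the form of its sample code together with the study's methods. The MIF-treated mice were set against experiment 2 because their sample codes continue that series. No source used here states their experiment, their age, or whether an empty vector was given to other mice, so injection, capsid and MIF cannot be told apart.

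Values were deposited on a log2 scale as normalized counts with the difference between experiments already removed, 1 column per mouse, and the depth of each library is not known from them. Differences are log2 differences between group means from limma, with p-values adjusted over all 15524 genes and a gene called at an adjusted p under 0.05. The scale is compressed at low levels: the 99th percentile of the absolute difference between SOD1-G37R and NT mice was 0.87 among genes at a level of 2 to 4, where Clec7a, Lpl and Gpnmb lie, and 1.95 among genes over 8, so the sizes of differences are not ranked between genes of different level. In whole tissue, more cells of a type and more RNA per cell cannot be told apart.

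All 10 genes rose in SOD1-G37R cords. Over both experiments, 10 of 10 were called higher in SOD1-G37R than in NT mice, where 14.8% of all genes were called higher. For 9 of them, all but Clec7a, every SOD1-G37R mouse stood above every NT mouse, a separation found for 3.23% of all genes. Their median difference was 1.75 on the log2 scale, against 0.00058 over all genes.

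Trem2 (ENSMUSG00000023992, GRCm38 chr17:48346401-48354147, plus strand) had a lowest, median and highest level of 8.02, 8.55 and 9.13 in SOD1-G37R mice, against 6.13, 6.40 and 6.84 in NT mice. Its lowest level among SOD1-G37R mice thus stood more than 1 log2 unit above the highest of the NT mice. The difference was 2.18 ± 0.123 (SE, n = 10 each, adjusted p = 4.0e-12). Tyrobp (ENSMUSG00000030579, chr7:30413760-30417585, plus strand), which encodes the adaptor that carries the signal of TREM2, gave almost the same picture, with 8.18, 8.72 and 9.33 in SOD1-G37R mice and 6.23, 6.52 and 6.96 in NT mice. Its difference was 2.22 ± 0.133 (SE, adjusted p = 9.3e-12).

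Both genes of lipid transport and lipolysis rose. Apoe (chr7:19696109-19699188, minus strand) encodes apolipoprotein E, a lipid carrier made by astrocytes and by activated microglia and a ligand of TREM2. Its lowest, median and highest level was 13.47, 13.70 and 14.04 in SOD1-G37R mice, against 12.29, 12.74 and 12.93 in NT mice, with a difference of 1.02 ± 0.0825 (SE, adjusted p = 1.4e-09). The deposited value of Apoe was the third or the fourth highest of all genes in every mouse. When the values were forced to one distribution by quantile normalization, its difference was 0.09 and no longer called (adjusted p = 0.259), whereas the other 9 genes stayed called. Its call was lost in the same way within experiment 1 (0.10, adjusted p = 0.424) and experiment 2 (0.08, adjusted p = 0.748). Quantile normalization gives genes of equal rank equal values, so these losses followed from the rank of Apoe and cannot decide whether it rose. Lpl (chr8:68880491-68907448, plus strand) encodes lipoprotein lipase, which frees fatty acids from lipoproteins. It had 3.44, 3.78 and 4.04 in SOD1-G37R mice, against 2.51, 2.72 and 2.84 in NT mice, and differed by 1.10 ± 0.0743 (SE, adjusted p = 7.6e-11).

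Among the surface receptors, Itgax and Axl separated the genotypes without overlap and Clec7a did not. Itgax (chr7:128129547-128150657, plus strand) encodes CD11c, an integrin subunit of dendritic cells and disease-associated microglia. It had a lowest, median and highest level of 4.90, 5.93 and 6.30 in SOD1-G37R mice, against 3.14, 3.59 and 3.84 in NT mice (difference 2.20 ± 0.134, SE, adjusted p = 1.1e-11). Axl (chr7:25757273-25788705, minus strand) encodes a receptor tyrosine kinase of the TAM family that binds apoptotic cells through GAS6. Its levels were 7.12, 7.44 and 7.83 in SOD1-G37R mice, against 6.10, 6.37 and 6.51 in NT mice (difference 1.13 ± 0.0929, SE, adjusted p = 1.9e-09).

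Clec7a (chr6:129461591-129472779, minus strand) encodes Dectin-1, a receptor for fungal beta-glucan that signals through SYK. It varied widely from mouse to mouse. Its lowest, median and highest level was 2.46, 3.53 and 4.45 in SOD1-G37R mice, against 2.13, 2.38 and 2.52 in NT mice. The difference was 1.04 ± 0.179 (SE, adjusted p = 9.0e-05), and 1 SOD1-G37R mouse, male 4, lay within the NT range. Within an experiment the SD of Clec7a was 0.615 in SOD1-G37R mice and 0.108 in NT mice.

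The secreted and lysosomal products rose as well. Cst7 (chr2:150570415-150578944, plus strand) encodes cystatin F, an inhibitor of lysosomal cysteine cathepsins. It had 4.63, 5.79 and 6.48 in SOD1-G37R mice, against 3.37, 3.67 and 3.91 in NT mice (difference 2.11 ± 0.159, SE, adjusted p = 4.8e-10). Spp1 (chr5:104435118-104441050, plus strand) encodes osteopontin, a secreted phosphoprotein that is also made by some motor neurons. Its levels were 7.64, 9.07 and 9.54 in SOD1-G37R mice, against 6.30, 6.96 and 7.43 in NT mice (difference 2.08 ± 0.204, SE, adjusted p = 3.7e-08). Its exons overlap those of the predicted gene Gm42793 on the same strand, so reads of both cannot be fully separated. Gpnmb (chr6:49036546-49070929, plus strand) encodes a transmembrane glycoprotein of lysosomes. It had 3.49, 4.53 and 5.57 in SOD1-G37R mice, against 2.90, 3.05 and 3.26 in NT mice (difference 1.41 ± 0.155, SE, adjusted p = 2.1e-07).

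**Figure D1:**
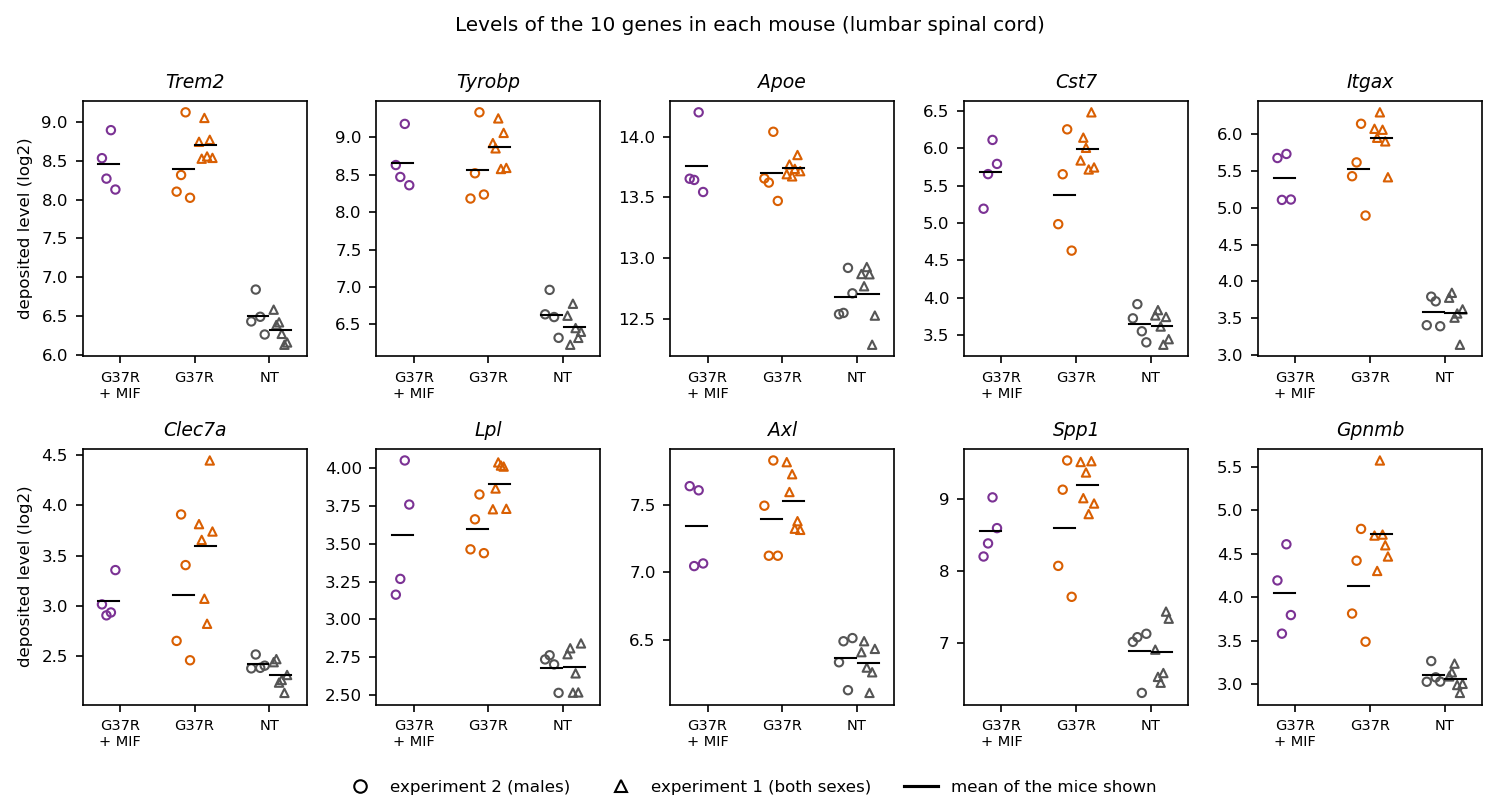
Deposited log2 level (vertical axes) of each of the 10 genes in each mouse, with MIF-treated SOD1-G37R (G37R + MIF), untreated SOD1-G37R (G37R) and NT mice from left to right, circles for experiment 2, triangles for experiment 1 and a bar for the mean of each group within its experiment. For 9 genes all untreated SOD1-G37R mice lie above all NT mice, while for Clec7a 1 of them, at 2.46, lies within the NT range of 2.13 to 2.52.

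The rise was present in each experiment. In experiment 1, 10 of 10 genes were called higher in SOD1-G37R mice (13.1% of all genes), and none of the 10 overlapped between groups (7.07% of all genes had every SOD1-G37R mouse above every NT mouse). In experiment 2, 9 of 10 were called (3.36% of all genes) and 9 did not overlap (6.56%). The exception was Clec7a, with levels of 2.65, 3.91, 3.40 and 2.46 in SOD1-G37R males and 2.38, 2.52, 2.38 and 2.40 in NT males. Males 2 and 3 stood clear of the NT males, and males 1 and 4 stood close to them. Its difference there was 0.69 (95% interval 0.19 to 1.18, adjusted p = 0.127). Without SOD1-G37R male 4 it was 0.90 and called (adjusted p = 0.0215). Gpnmb was called in experiment 2 (1.03, adjusted p = 0.0262), but leaving out any of 5 single mice (SOD1-G37R males 2 and 3, and NT males 1, 3 and 4) gave an adjusted p between 0.0605 and 0.102.

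All 10 differences were smaller in experiment 2 than in experiment 1. The same held for the median difference of the 29 other disease-associated genes given below (1.04 against 1.38). It also held for the 4 microglia markers (1.03 against 1.32), but not for the 16 homeostatic genes (0.17 against 0.06). Csf1r and Cx3cr1 are in both of these lists. A smaller difference was thus not particular to the 10 genes. Among males, the interaction of experiment and genotype (experiment 2 minus experiment 1) ran from -0.75 for Clec7a to -0.05 for Axl and was -0.55 for Trem2 (95% interval -1.16 to 0.06). None of the 10 reached an unadjusted p of 0.05, a level reached by 3.57% of all genes, and no gene of the table was called, so a difference between experiments was not shown for any of these genes. The intervals are wide, with 3 or 4 males per genotype and experiment.

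Sex was compared in experiment 1, with 3 females and 3 males per genotype. No gene was called for the interaction of sex and genotype, and 1 of the 10, Spp1, had an unadjusted p under 0.05 (4.34% of all genes did). Spp1 averaged 9.30 ± 0.259 in SOD1-G37R females against 6.62 ± 0.246 in NT females, and 9.08 ± 0.390 in SOD1-G37R males against 7.11 ± 0.468 in NT males (SD, n = 3 each). The interaction, males minus females, was -0.71 (limma across all genes, adjusted p = 0.993), which does not hold up against the number of genes tested.

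The tissue label was checked against 4 markers of microglia, Aif1, Csf1r, Cx3cr1 and C1qa. All 4 were present in every group and 4 of 4 were called higher in SOD1-G37R mice, by 1.20 (Aif1), 0.93 (Csf1r), 1.21 (Cx3cr1) and 2.0 (C1qa). Their mean ranged over 8.03 to 8.45 in SOD1-G37R mice and 6.54 to 7.08 in NT mice of experiment 1, and over 7.64 to 8.38 in SOD1-G37R mice and 6.67 to 6.93 in NT mice of experiment 2. The markers thus moved with the 10 genes. Their mean was then subtracted from every gene of the same mouse, which sets each difference against the mean difference of the markers.

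Against the mean of these 4 markers, Trem2 (0.85), Tyrobp (0.89), Itgax (0.87), Cst7 (0.77) and Spp1 (0.74) remained higher in SOD1-G37R mice. Their adjusted p from limma was between 8.2e-10 and 9.4e-05. It does not count the spread among the markers, which rose by 0.93 (Csf1r) to 2.0 (C1qa). C1qa alone rose nearly as much as these genes, whose own differences ran from 2.08 (Spp1) to 2.22 (Tyrobp). A difference from C1qa alone was not tested. The subtraction moved the median of all genes by -1.34, so that 0.412% of all genes were called higher and 98.9% lower. Apoe (-0.31, adjusted p = 0.00625) and Lpl (-0.24, adjusted p = 0.0322) were called lower, as nearly all genes were. The values of Gpnmb (0.08, adjusted p = 0.558), Clec7a (-0.29, adjusted p = 0.069) and Axl (-0.21, adjusted p = 0.0594) against the markers were not called, and the genes were not tested against each other. This comparison was chosen after the data had been seen, Clec7a, Lpl and Gpnmb lie at levels where the scale is compressed, and Apoe and Axl are also expressed by astrocytes.

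**Figure D2:**
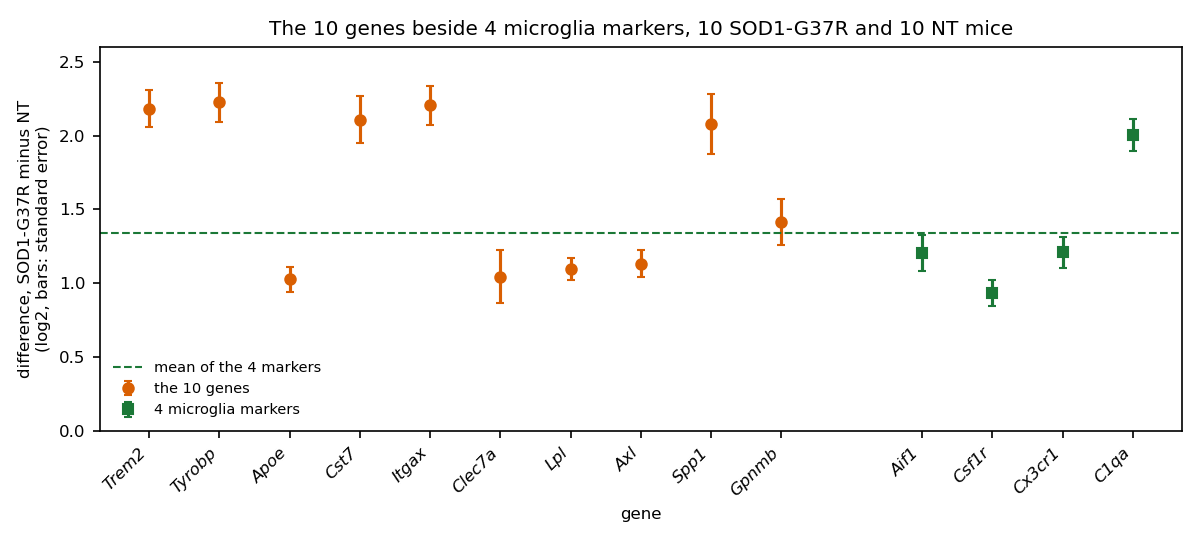
Difference between 10 SOD1-G37R and 10 NT mice (vertical axis, log2, bars for the standard error) of the 10 genes beside 4 markers of microglia, whose mean is the dashed line. Trem2, Tyrobp, Cst7, Itgax and Spp1 lie above 2.0, and the markers run from 0.93 for Csf1r to 2.0 for C1qa.

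The answer depended on which microglial genes served as the yardstick. A wider list of 16 homeostatic genes also includes the markers Csf1r and Cx3cr1. In it 7 rose, 2 fell and 7 were not called, with a median difference of 0.15 (11.8% of all genes were called lower). Fcrls rose by 2.71. P2ry12, the purinergic receptor of resting microglia, lies at a level where the scale is compressed (mean 2.5 in both genotypes), and differed by 0.02 (adjusted p = 0.915). Tmem119 differed by -0.13 (adjusted p = 0.478), and Siglech (-0.25) and the lens crystallin gene Crybb1 (-0.77) fell. Against the mean of that list, all 10 genes remained higher, by 0.62 for Apoe to 1.82 for Tyrobp, where 3.58% of all genes were called higher.

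The rest of the TREM2 pathway was given by lists drawn from general knowledge. Of 20 genes of TREM2-TYROBP signalling, 18 were measured, of which 12 rose, none fell and 6 were not called (median difference 0.47), where 14.8% of all genes rose and 11.8% fell. Ptpn6, which encodes the inhibitory phosphatase SHP-1, rose by 1.59 (adjusted p = 7.9e-11). The adaptor gene Blnk rose by 1.22, Inpp5d, which encodes the inhibitory lipid phosphatase SHIP1, by 0.91 and the adaptor gene Pik3ap1 by 0.83. The kinase gene Syk, directly downstream of TYROBP, rose by 0.47 (adjusted p = 9.7e-05), and Plcg2, a phospholipase further down, by 0.66 (adjusted p = 5.7e-06).

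Among ligands, sheddases and regulators of TREM2, 14 of 19 were measured, of which 7 rose, none fell and 7 were not called (median 0.23), beside the same 14.8% of all genes that rose. Lgals3, which encodes galectin-3, rose by 3.06 and Clu, which encodes the lipid carrier clusterin, by 1.01. Spi1, which encodes the myeloid transcription factor PU.1, rose by 1.25. Of the 2 proteases that cut TREM2 from the cell surface, Adam17 rose by 0.74 (adjusted p = 1.9e-06), whereas Adam10 differed by 0.18 and was not called (adjusted p = 0.177).

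All 29 measured genes of 30 others of the disease-associated state rose (14.8% of all genes did), with a median of 1.31 and a range of 0.21 (Fth1) to 2.89 (Cd68, a lysosomal membrane protein). Ctsd (1.95), the gene of the lysosomal protease cathepsin D, Cd52 (2.18) and Ch25h (1.59), which encodes an enzyme of oxysterol synthesis, had the smallest adjusted p after Cd68. In microglial lipid handling, 10 of 17 measured genes (19 listed) rose, 1 fell and 6 were not called. The cholesterol exporter gene Abca1 rose by 1.19, the lysosomal cholesterol carrier gene Npc2 by 0.76, the apolipoprotein gene Apoc4 by 1.77 and Scarb2 by 0.47.

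Markers of other cells moved too, and their counts stand beside 14.8% of all genes that rose and 11.8% that fell. Of 12 astrocyte genes, 7 rose and 1 fell (Serpina3n 3.30, Vim 2.53, Gfap 1.85). Of 12 motor neuron genes 9 fell (Chodl by 0.91, Ache by 0.74), and of 12 neuronal genes 10 fell (Nefh by 1.15, Rbfox3 by 0.80). In experiment 1, 8 motor neuron and 11 neuronal genes fell, with medians of -0.80 and -0.59 (1720 of all 15524 genes fell). In experiment 2, 0 and 1 fell, with medians of -0.09 and -0.53 (74 of all genes fell). Among males, the interaction of experiment and genotype was not called for any of them. Border macrophage and monocyte genes numbered 5 in the table (of 12), and 3 of them rose, Ms4a7 by 1.92, Fn1 by 0.80 and Pf4 by 0.34, while Cd163 (0.03) and Cbr2 (0.01) were not called. None of 5 measured T cell genes (12 listed) was called. Of 12 oligodendrocyte genes 2 rose and 2 fell, of 10 endothelial and pericyte genes 1 rose, and of 4 measured Schwann cell genes 2 rose and 1 fell. The part of these cells in the rise of the 10 genes was not tested.

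Blood content differed between single mice. The mean of 4 red blood cell genes was 8.57 in MIF-treated male 1 and 8.24 and 7.06 in SOD1-G37R males 1 and 2, against 3.65 to 4.37 in the NT males of experiment 2. None of the 4 genes was called between genotypes. Among the 4 untreated SOD1-G37R males of experiment 2, male 3, with a red blood cell mean of 4.66, was highest for 9 of the 10 genes and male 2 for Clec7a, and male 4, with 3.93, was lowest for 9. The part of blood in the levels of the 10 genes was not tested.

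None of the 10 genes was called between MIF-treated and untreated SOD1-G37R males. None reached an unadjusted p of 0.05 either, a level reached by 3.29% of all genes, and 0.00644% (1 gene) were called. The 2 groups overlapped for all 10 genes, while 0.96% of genes had every MIF-treated mouse above every untreated one. Of the 10 differences 4 were positive and 6 negative, from -0.11 for Itgax to 0.31 for Cst7, with a median of -0.04.

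Trem2 was 8.53, 8.27, 8.90 and 8.13 in MIF-treated males, against 8.10, 8.32, 9.13 and 8.02 in untreated SOD1-G37R males. The highest and the lowest mouse were both untreated. The difference was 0.07 with a 95% interval of -0.40 to 0.53, which set beside the genotype difference of 1.89 in the same fit spans -21.0% to 27.9% of it. Tyrobp was 8.63, 8.47, 9.18 and 8.36 in MIF-treated males, against 8.18, 8.52, 9.33 and 8.24 in untreated males (0.09, interval -0.40 to 0.58).

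For Cst7 the treated mice lay within the range of the untreated ones. Its levels were 5.19, 5.65, 6.11 and 5.79 in MIF-treated males, against 4.98, 5.65, 6.25 and 4.63 in untreated SOD1-G37R males (0.31, interval -0.27 to 0.88). Spp1 was 8.20, 8.38, 9.02 and 8.59 in MIF-treated males, against 8.07, 9.13, 9.54 and 7.64 in untreated males (-0.04, interval -0.74 to 0.65). That interval was the widest of the 10, and the narrowest was that of Apoe (-0.26 to 0.39). For Clec7a it was -0.55 to 0.44, which spans -79.9% to 64.3% of its genotype difference in that experiment. With 4 mice per group, a change of Clec7a by most of that difference was thus not excluded.

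MIF-treated mice thus stayed well above NT mice: 9 of 10 genes were called higher (2.89% of all genes), and for 10 of 10 every MIF-treated mouse stood above every NT male of experiment 2 (6.48% of all genes). This comparison shares its treated mice with the one against untreated mice, and its NT mice with the genotype comparison of experiment 2. Trem2 differed by 1.95 (adjusted p = 8.6e-05), Tyrobp by 2.03 (adjusted p = 9.3e-05) and Clec7a by 0.63 (adjusted p = 0.192). Gpnmb (0.94, adjusted p = 0.0467) was at the threshold, and its call was lost when any of 9 of the 12 mice was left out, and also when each mouse was centred on its median (adjusted p = 0.0664) or the values were quantile normalized (0.90, adjusted p = 0.06). Quantile normalization also ended the call of Apoe there (0.08, adjusted p = 0.776), which followed from its rank as above.

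**Figure D3:**
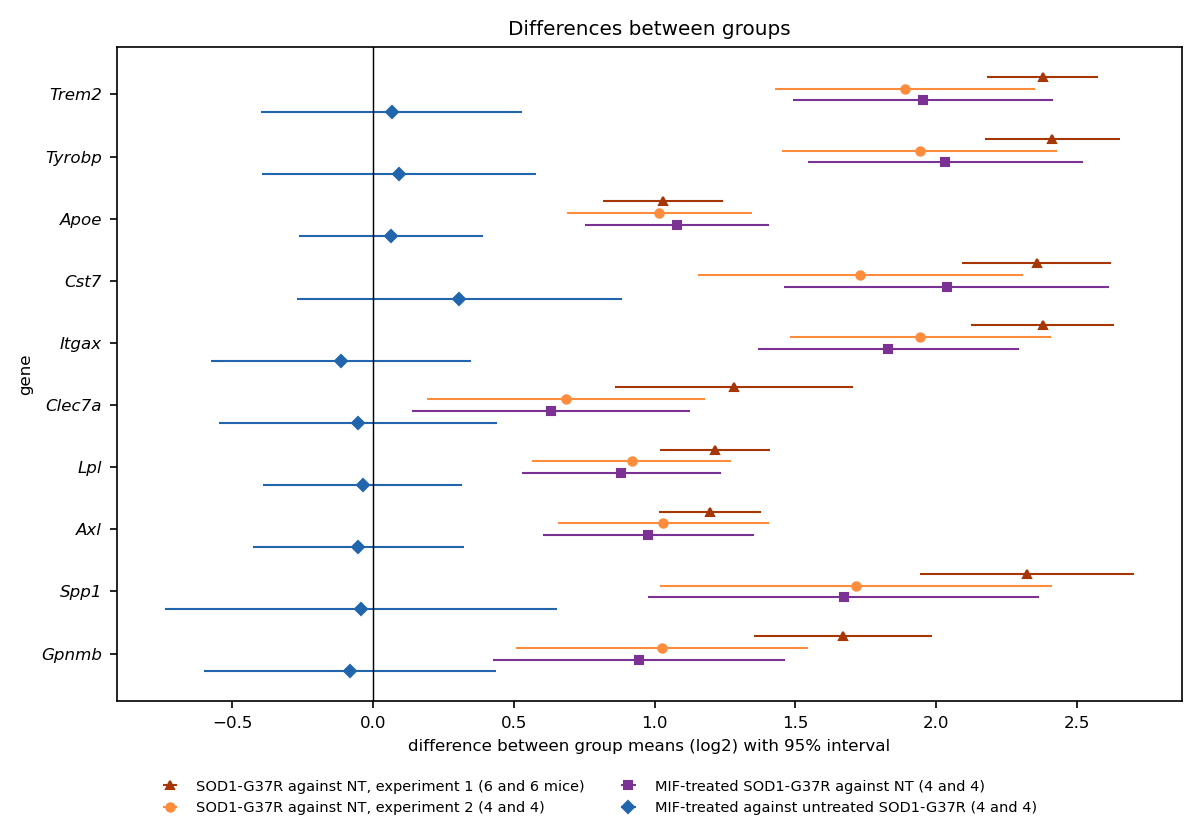
Difference between group means (horizontal axis, log2) with its 95% interval for each of the 10 genes in 4 comparisons, which share mice. The genotype differences all lie right of 0, and the differences between MIF-treated and untreated SOD1-G37R males all have intervals that include 0.

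Mif mRNA, read as a check of the treatment, was 10.02, 9.73, 9.77 and 9.57 in MIF-treated males, against 9.72, 9.53, 9.78 and 9.71 in untreated SOD1-G37R males. One treated mouse stood above the others, and the groups overlapped (difference 0.09, adjusted p = 1). No source used here gives the 3' end of the MIF transcript made from the vector, so it is not known whether this 3' end library counts it. The single gene called between these groups, Cd74, was noticed after its values were seen and is among the 29 genes of the disease-associated state above. It encodes the invariant chain of MHC class II, which is also the surface receptor of MIF. Its levels were 7.79, 7.32, 7.26 and 8.14 in MIF-treated males, against 6.07, 6.44, 6.57 and 6.26 in untreated SOD1-G37R males and 5.07, 5.12, 5.09 and 4.96 in NT males. The 3 groups did not overlap. The difference between MIF-treated and untreated males was 1.29 ± 0.169 (SE, adjusted p = 0.0155). The call was lost in 4 of 12 fits that left out 1 mouse (MIF-treated male 1, and untreated males 1, 2 and 4, adjusted p up to 0.107) and in a fit without the NT mice (adjusted p = 0.195), at differences of 1.12 to 1.42 throughout the leave-out fits.

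Correlations between the 10 genes over untreated SOD1-G37R mice were positive, and few of them passed a test. After each gene had been centred on the mean of its experiment, all 45 pairs had a positive Pearson r over the 10 mice, with a median of 0.72 and a range of 0.00453 (Clec7a with Axl) to 0.97 (Trem2 with Tyrobp). Females and males of experiment 1 were centred and permuted together, so differences between the sexes enter r and its p-value. Over all genes of the table, 49.7% to 51.9% had a positive r with a given one of the 10, and the median r was between -0.00255 and 0.0207. Exact permutation of the mice within each experiment allowed 17280 arrangements and a smallest p of 5.8e-05. After adjustment over the 45 pairs, 2 pairs passed.

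Trem2 and Tyrobp had the closest relation, with r = 0.97 and Spearman's rho = 0.90 (exact permutation p = 0.00116 and 0.00486, adjusted p = 0.0286 and 0.0512). Without the 2 mice farthest from the median of Trem2, r was 0.86, and within the 6 mice of experiment 1 it was 0.90. Trem2 and Gpnmb had r = 0.85 and rho = 0.87 (exact permutation p = 0.00127 and 0.00463, adjusted p = 0.0286 and 0.0512), with r = 0.68 without the 2 farthest mice and 0.90 in experiment 1. Experiment 2 held only 4 untreated SOD1-G37R mice, and no r is given for it alone. In 8 of 10 fits that left out 1 mouse the Trem2 and Tyrobp pair lost its call, although r stayed between 0.90 and 0.98. The Trem2 and Gpnmb pair lost its call in 7 of the 10, at r between 0.82 and 0.91, and no pair passed with rank correlations. The 6 mice of experiment 1 allow 720 arrangements and a smallest p of 0.00139, which over 45 pairs is 0.0625 for a single pair, so no single pair could have passed there.

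The level of homeostatic genes and the median of each mouse were then removed in turn. With the mean of the homeostatic list subtracted, the median r was 0.44 and no pair passed, but Trem2 and Tyrobp still had r = 0.94. With each mouse centred on its median over all genes, the median r was 0.71 and 2 pairs passed. In NT mice centred on each experiment the median r was 0.32, 35 of 45 pairs were positive and no pair passed. The 2 pairs that passed in SOD1-G37R mice had high r in NT mice too, 0.77 for Trem2 with Tyrobp and 0.80 for Trem2 with Gpnmb. The 2 sets of mice were not tested against each other.

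The size of r depended on 2 mice of experiment 2. SOD1-G37R male 3 had the highest mean over the 10 genes of that experiment (7.43) and male 4 the lowest (6.34). Without male 3 the median r of the 45 pairs was 0.50 and without male 4 it was 0.63. In experiment 1 alone it was 0.41, with 34 of 45 pairs positive.

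**Figure D4:**
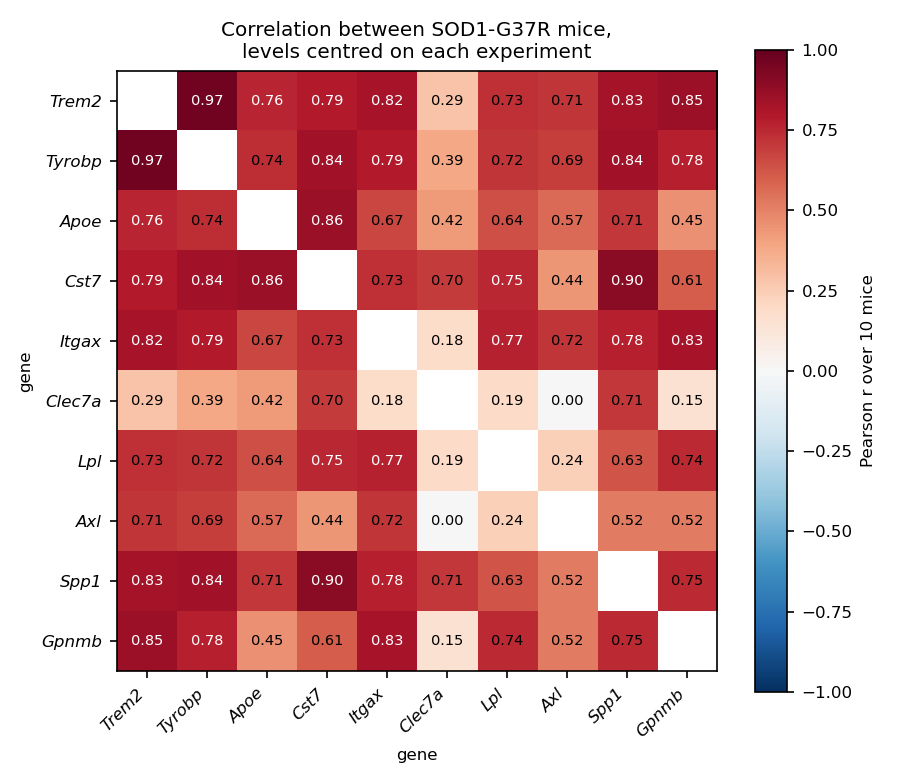
Pearson r (colour and number) of each pair of the 10 genes over the 10 untreated SOD1-G37R mice, with levels centred on each experiment. Trem2 and Tyrobp have the highest value (0.97), and Clec7a with Axl the lowest (0.00453).

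Clec7a had the lowest median r with the other 9 genes (0.29), a difference between genes that was not tested. With Trem2 its r was 0.29 and its rho 0.50 (exact permutation p = 0.556 and 0.166), and without the 2 mice farthest from the median of Trem2 r was 0.75, whereas in experiment 1 alone it was -0.06 and with any 1 mouse left out it was between 0.12 and 0.48. Its r was 0.18 with Itgax, 0.15 with Gpnmb and 0.19 with Lpl, but 0.70 with Cst7 and 0.71 with Spp1 (exact permutation p = 0.0514 and 0.0532, adjusted p = 0.104 each). In NT mice r of Clec7a was 0.64 with Trem2, 0.87 with Itgax, 0.55 with Gpnmb and 0.71 with Lpl. It was 0.42 with Cst7 and -0.20 with Spp1 there. In SOD1-G37R mice Cst7 and Spp1 had r = 0.90 with each other (exact permutation p = 0.0101, adjusted p = 0.0647). SOD1-G37R female 3 was highest for Gpnmb (5.57) among the 6 mice of experiment 1 but had the second lowest Clec7a (3.07), and male 6, highest for Clec7a (4.45), had a Gpnmb of 4.60.

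**Figure D5:**
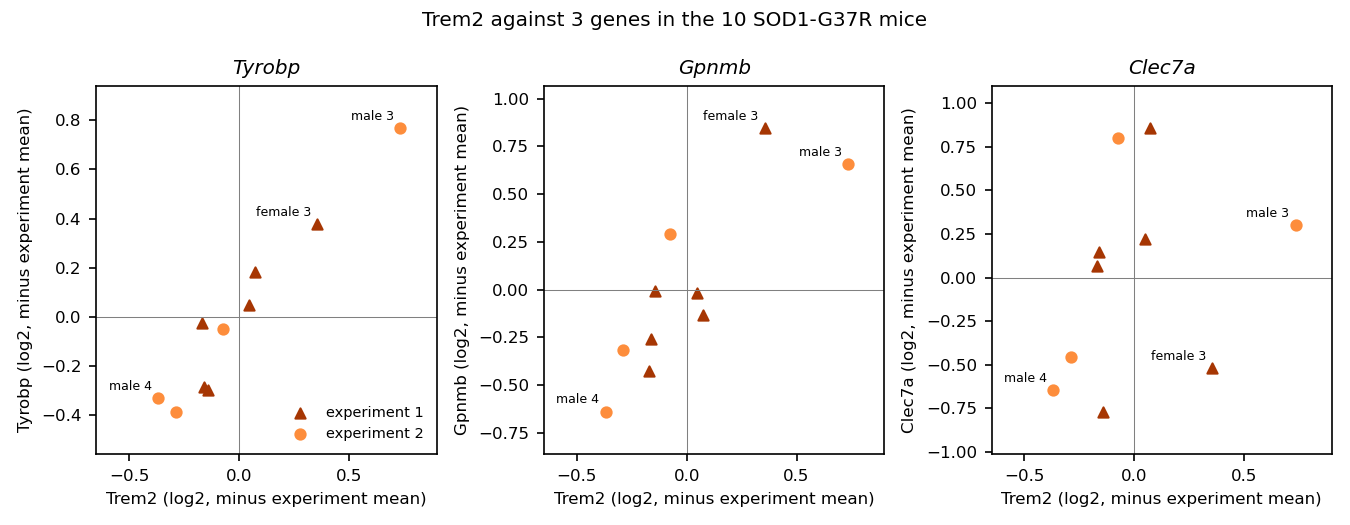
Levels of Tyrobp, Gpnmb and Clec7a (vertical axes) against Trem2 (horizontal axes) in the 10 untreated SOD1-G37R mice, each as log2 minus the mean of the mouse's experiment, with triangles for experiment 1 and circles for experiment 2. The points follow a line for Tyrobp (r = 0.97) and scatter for Clec7a (r = 0.29), and male 3 lies at the upper end of Trem2 and male 4 at the lower end.

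Over the whole table, Tyrobp held rank 2 of 15523 genes by r with Trem2 among these 10 mice. Rank 1 was held by Fcer1g (r = 0.97), which encodes another adaptor of immune receptors, related in function to TYROBP. The next were Slc7a2 (0.96), the cationic amino acid transporter gene, Cd68 (0.96), the cathepsin gene Ctsz (0.95) and Daam1 (0.95), followed by Ctsh, Ctsd, C1qc, Psap and Ctsa, all at 0.94 or 0.95. Daam1, a gene of actin assembly, was the only one of these 10 not called between genotypes (0.04, adjusted p = 0.742). These r values share the same mice and libraries and are given as a description. The other 8 of the 10 genes ranked from 125 (Gpnmb) to 4247 (Clec7a).

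Trem2 was set against the mean of each of 15 gene lists and the median of all genes, and 6 of these 16 relations passed by r. The mean of the 29 other genes of the disease-associated state was one of them (r = 0.94, rho = 0.92, exact permutation p = 4.6e-04 and 0.00197, adjusted over 16 relations p = 0.00741 and 0.0315). Without the 2 farthest mice r was 0.90, and in experiment 1 it was 0.95. The mean of the 17 genes of lipid handling had r = 0.90 (0.80 without the 2 farthest mice), and the mean of the 4 microglia markers had r = 0.80 (exact permutation p = 0.0257, adjusted p = 0.0515), or 0.60 without them. Homeostatic genes (r = 0.91, adjusted p = 0.0211), TREM2-TYROBP signalling (0.92, adjusted p = 0.0185), ligands and regulators of TREM2 (0.84, adjusted p = 0.0319) and border macrophage genes (0.89, adjusted p = 0.0185) also passed in the exact permutation test, and oligodendrocyte (0.85) and astrocyte genes (0.80) had an adjusted p of 0.0515 each. Without the 2 farthest mice r was 0.58 to 0.64 for the first 4 of these lists, 0.26 for oligodendrocyte and 0.64 for astrocyte genes. By rho, the lists of homeostatic genes (adjusted p = 0.0948), ligands and regulators (adjusted p = 0.109) and border macrophages (adjusted p = 0.0678) no longer passed in the exact permutation test. In the same test the T cell list passed in the negative direction (r = -0.70, adjusted p = 0.0828, and rho = -0.83, adjusted p = 0.0368). None of its 5 genes was called between genotypes, and its mean lies at a low level where the scale is compressed. Neuronal genes had r = -0.75 (adjusted p = 0.0675). A closer relation to the disease-associated genes than to the other lists was not tested.

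Short stretches of promoter are shown because all 10 genes were called higher in SOD1-G37R cords. RefSeq windows of 300 bases (GRCm38.p6), from 250 bases before the start site to 50 after it, were at hand for 8 of the 10 genes. They were searched on both strands for TGANTCA, the PU.1 core GAGGAAGT and CACGTG, the box bound by MITF and TFEB. TGANTCA is a loose form of the AP-1 motif, the site of FOS and JUN factors, and allows any middle base. This loose form was found in 4 of the 8 genes, Trem2 (middle base A), Cst7 (T), Itgax (G) and Gpnmb (C), and in 8.97% of all 27025 genes with a window. It is shown in capitals, on the strand of the gene, 5′ to 3′.
Trem2 (chr17:48346381-48346409): ttctccctcctTGAATCAcagcgcctacc
Cst7 (chr2:150570398-150570426): tctggttaaaaTGATTCAgcaagaaacca
Itgax (chr7:128129483-128129511): cccacctcctcTGAGTCAcgctgacaact
Gpnmb (chr6:49036515-49036543): ccaggggcaagTGACTCAtgagcacgagt
The PU.1 core was found in Spp1 alone of the 8 genes (3.69% of all genes), 113 bases before its start site.
Spp1 (chr5:104434987-104435016): caaaaccagagGAGGAAGTgtaggagcagg
CACGTG was in none of the 8 (8.09% of all genes). A match of letters is a description and no evidence of binding, and the absence of one says only that these letters are not in this window.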

How the data were processed

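RNA from lumbar spinal cord was extracted and made into MARS-seq libraries, which read the 3' end of transcripts and carry unique molecular identifiers. Per the labels and the study's methods, the authors used RSEM 1.2.28 for counting after alignment by STAR 2.5.2a to the GRCm38 genome, with trimming by cutadapt 1.15 and Trim Galore 0.4.5. They then ran the DESeq2 module of NeatSeq-Flow and removed the batch by SVA/ComBat. The deposited log2 values are headed as normalized counts. Their transform is not stated, 2.22% of them are below 0, and the median over genes is 4.08 to 4.23 per mouse. Counts and depth per library are not in the values used, so no counting error could be given, and removal of the batch before testing can make p-values too small. The table also holds the authors' own fold changes and p-values, which were not used.

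Values were tested with limma 3.58.1 (R 4.3.3) without a filter, with experiment as covariate over all untreated mice, sex in experiment 1, and 1 fit of 3 groups for the 12 males of experiment 2. P-values were adjusted by the Benjamini-Hochberg method over 15524 genes. Each sample is 1 mouse. Correlations were tested by exact permutation within experiments in Python 3.11.15 with numpy 2.4.6. With MIF-treated mice added, the arrangements were too many to list, and a random draw of them within group and experiment was used. The code was tested on simulated data. Symbols absent from the table were filled by gene ID for 1711 genes. Positions came from GENCODE M21 and promoters from RefSeq.

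The named genes were the 10 genes, up to 4 genes of smallest adjusted p in each list (others are named for their role, after their values were seen), the 10 genes closest to Trem2, and Mif. The members and lists were chosen with earlier results of these data known. Alternatives were other scalings, a filter on low values, a variance trend, other covariates and leaving out mice. Values of single genes of the microglial and lipid lists are in part not reported here.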

Additional observations from a re-analysis of the deposited data

Results flagged for a closer look

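Each of the 10 genes was examined in each of 5 groups of 4 or 6 mice (50 groups in all) for a mouse whose gap to the nearest other exceeded the 95% limit of Dixon's test, which chance passes in about 1 of 20 groups. In 3 groups a mouse did. Apoe was 14.20 in MIF-treated SOD1-G37R male 3, against 13.54 to 13.65 in the other treated males. Gpnmb was 5.57 in SOD1-G37R female 3, against 4.30 to 4.72 in the other SOD1-G37R mice of experiment 1. Spp1 was 6.30 in NT male 3, against 7.01 to 7.12 in the other NT males of experiment 2.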

How the results depend on the processing

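All 10 genes stayed called between SOD1-G37R and NT mice under every alternative run on all untreated mice, except Apoe under quantile normalization (0.09) and, after subtraction of the mean of 4 microglia markers, Gpnmb (0.08), Axl (-0.21) and Clec7a (-0.29), which were no longer called, and Apoe (-0.31) and Lpl (-0.24). The signs of Axl, Clec7a, Apoe and Lpl turned because the mean of the markers rose more. With genes below the median level left out, Clec7a, Lpl and Gpnmb were not tested. Leaving out 1 mouse gave 10 called genes over all mice and in experiment 1, 8 to 10 in experiment 2, 8 to 9 for MIF-treated against NT mice and 0 for MIF-treated against untreated mice. Over all genes, calls between genotypes numbered 4120, against 2444 in males only, 2684 at an adjusted p under 0.01, 13551 with the homeostatic mean subtracted and 15419 with the marker mean subtracted. The last 2 scalings shifted the whole table, and with the homeostatic mean subtracted the counts were 12736 in experiment 1 (3750 without), 8630 in experiment 2 (595 without) and 6386 for MIF-treated against NT mice (483 without). Leaving out 1 mouse gave 308 to 856 genes in experiment 2 and 276 to 588 for MIF-treated against NT mice. Between genotypes, 55.6% of calls were higher, 35.8% with each mouse centred on its median, which moved the median of all genes by less than 0.1. For MIF-treated against untreated mice the count of 1 gene became 2 with low genes left out, 3 with a variance trend, 4 with all mice in the fit, 0 with only the SOD1-G37R mice, and 0 to 2 with 1 mouse left out. Correlated pairs numbered 2, against 0 with Spearman's rho, in experiment 1 alone, with the homeostatic mean subtracted, without the 2 farthest mice or in NT mice, 16 with MIF-treated mice added, 16 without centring on the experiment, and 0 to 5 with 1 mouse left out. The subtraction of the marker mean, the use of NT mice, the values not centred, and leaving out single mice for correlations were chosen after seeing the data. With 4 mice per group, the half-width of the 95% interval was 0.33 to 0.70 log2 units.

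The replicate number as a block gave 10, 10, 9, 0 and 9 called genes of the 10 for SOD1-G37R against NT mice over all mice, in experiment 1 and in experiment 2, for MIF-treated against untreated mice and for MIF-treated against NT mice, and so changed no call among them. The gene called between MIF-treated and untreated mice, Cd74, was lost with the block (adjusted p = 0.0761), and 0 genes were called. Same-numbered mice were not treated as pairs in the main fits, and the correlations of their deviations ran from -0.26 to 0.37. Over the 4 pairs of MIF-treated and untreated males they were 0.37, 0.11, 0.25 and 0.06. MIF-treated and untreated males of different number had -0.29 to 0.37, with MIF-treated male 4 closer to untreated male 2 (0.37) than to its own number. Whether mice of the same number shared a step of handling was not tested.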
